A study of Rattus norvegicus with 6 samples.

Results

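Fatty acid oxidation genes were measured in the livers of rats given diethylnitrosamine (DEN, a hepatocarcinogen that produces fibrosis, cirrhosis and liver tumors), and rats that also drank EGCG (epigallocatechin gallate, a polyphenol of green tea) were compared with rats that drank water. The genes were chosen by name as a list of 37 enzymes and carriers of fatty acid oxidation and ketone body synthesis. The choice was made with earlier results of these data known. Of the 37, 36 had a probe under their symbol in the platform annotation, of 13337 named genes with a probe. Each gene was read at its brightest probe. Of the 36, 35 passed the filter on dim probes, of 9193 named genes that did so. Ehhadh had no probe under its symbol, and Cpt1b, the muscle form of carnitine palmitoyltransferase, lay at log2 5.94 to 6.43 in the 6 rats, below the filter at a mean of log2 6.39. The list holds a single gene of the ketone body pathway itself, Bdh1, so that it describes fatty acid oxidation far more than ketogenesis.

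All 6 animals were male Wistar rats injected weekly with DEN at 50 mg/kg over 18 weeks, and non-tumor liver was taken in week 19, after 1 week without DEN. In the EGCG group, 3 rats (EGCG_228, EGCG_234 and EGCG_236) had 0.02% EGCG in the drinking water during weeks 13 to 18, and in the control group 3 rats (water_224, water_227 and water_237) drank water. No rat without DEN was compared, so that the values describe EGCG on top of the carcinogen. Each rat gave 1 Illumina bead array.

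Long-chain fatty acids are joined to coenzyme A by acyl-CoA synthetases, carried into mitochondria as carnitine esters and shortened there by the repeated reactions of beta-oxidation, whose product acetyl-CoA feeds the citric acid cycle or, in liver, ketone bodies. Peroxisomes shorten very long and branched chains, and microsomal cytochrome P450 enzymes of the Cyp4a family oxidize the far end of the chain. In rodent liver many of these genes are targets of PPARA, the nuclear receptor for fatty acids that drives the response to fasting.

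The sequences upstream of the members with the smallest unadjusted p-values, Cpt1a and Cyp4a2, are shown with that of Cyp4a3, because Cyp4a2 and Cyp4a3 are close copies whose levels moved together from rat to rat. Each is the 250 bases before the gene start, written in the gene's direction, from RefSeq on build GRCr8. They lie at chr5:134170909-134171158 (minus strand) for Cyp4a2, chr5:134352237-134352486 (minus strand) for Cyp4a3 and chr1:209995910-209996159 (plus strand) for Cpt1a. Capitals mark the hexamer AGGTCA, the core element that PPARA and other nuclear receptors recognize.
Cyp4a2: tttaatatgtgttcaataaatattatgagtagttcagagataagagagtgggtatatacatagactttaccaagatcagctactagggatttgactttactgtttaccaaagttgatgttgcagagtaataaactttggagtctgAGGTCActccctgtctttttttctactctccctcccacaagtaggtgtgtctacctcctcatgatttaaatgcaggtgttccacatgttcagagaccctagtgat
Cyp4a3: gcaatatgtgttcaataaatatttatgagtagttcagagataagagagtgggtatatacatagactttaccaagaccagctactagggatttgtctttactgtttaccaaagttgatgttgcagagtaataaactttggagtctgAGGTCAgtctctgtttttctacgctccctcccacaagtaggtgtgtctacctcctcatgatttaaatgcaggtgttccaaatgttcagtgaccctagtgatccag
Cpt1a: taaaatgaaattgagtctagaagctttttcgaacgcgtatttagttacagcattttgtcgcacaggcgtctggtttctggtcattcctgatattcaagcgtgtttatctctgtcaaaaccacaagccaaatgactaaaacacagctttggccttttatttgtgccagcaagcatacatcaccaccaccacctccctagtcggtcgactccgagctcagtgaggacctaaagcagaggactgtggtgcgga
The Cyp4a2 and Cyp4a3 sequences were identical at 95.2% of 248 aligned columns, and both held the hexamer at base 146, while the Cpt1a sequence held none on either strand. Of the 37 listed genes, 31 matched an upstream sequence by symbol, and AGGTCA was found on either strand in 6 of them (19.4%), against 14.1% of the 33469 upstream sequences of all genes. The direct repeat of AGGTCA with any 1 base between the copies, the form bound by PPARA with its partner RXR, was found in 0 of the 31 and in 0.0508% of all. With any base allowed at the fourth position of each copy (AGGNCA) it was found in 0 and in 0.368%. Each looser search includes the matches of the stricter. A match is a run of letters and not a binding site, and elements farther from the start were not searched.

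None of the 35 genes passed the threshold, although most had a higher mean with EGCG. With limma over all 13514 probes, 0 of 35 had an adjusted p under 0.05, against 0.566% of all named genes (0.120% higher and 0.446% lower with EGCG). At an unadjusted p under 0.05 there were 7 of 35, all higher with EGCG (Cpt1a, Cyp4a2, Cyp4a3, Acadm, Acsl3, Acsl5 and Bdh1), where 11.6% of all named genes passed in either direction with 5.28% higher and 6.31% lower. The difference of the means (EGCG minus water, log2 normalized intensity) was above 0 for 27 of 35 (77.1%), against 51.1% of all named genes. Its median was 0.22 for the members and 0.0037 for all named genes. Members were brighter than most genes, with a median level of log2 9.93 against 7.33. Among the 24 members at or above log2 9 the median difference was 0.20, and among the 2059 named genes at that level it was -0.0039. The test without moderated variances called 0 members and 0% of all named genes, and 2 members, 1 of them higher, had an unadjusted p under 0.05, against 9.27% of all named genes.

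**Figure D1:**
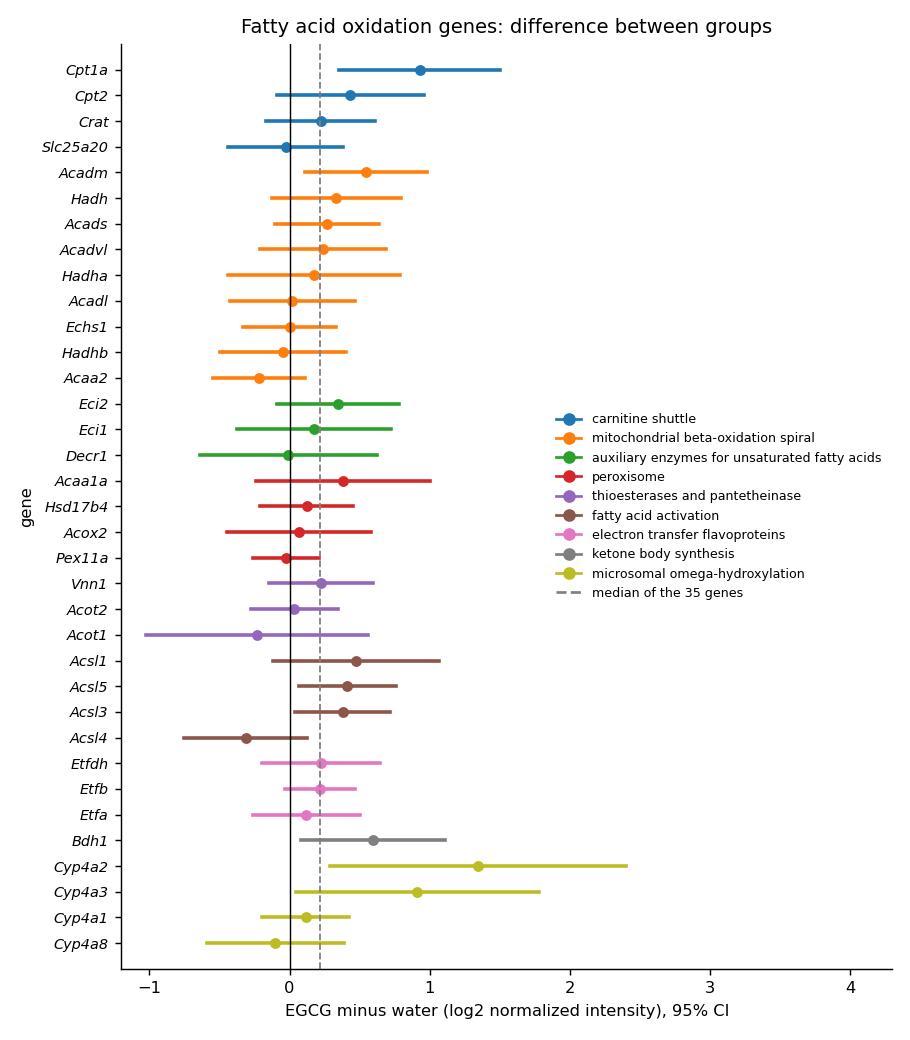
Difference between groups (EGCG minus water, log2 normalized intensity, x axis) for the 35 genes (y axis), colored by role, with points for the difference of the means of 3 rats each and bars for the moderated 95% confidence interval. Cpt1a (0.93) and Cyp4a2 (1.34) lie farthest to the right, and the dashed line marks the median of 0.22.

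The 3 EGCG rats were not alike. Set against the mean of the water rats, the median log2 level over the 35 genes was higher by 0.38 in EGCG_228 and by 0.33 in EGCG_234, and it was -0.14 in EGCG_236. It was 0.045 in water_224, 0.063 in water_227 and -0.072 in water_237. Over all named genes the same median lay between -0.0052 and 0.0040 in every rat. EGCG_228 exceeded all 3 water rats for 25 of 35 genes (71.4%, against 28.1% of all named genes) and EGCG_234 also for 25 of 35 (against 29.6%). EGCG_236 did so for 5 of 35 (14.3%, against 28.1%), and it fell below all 3 water rats for 16 of 35 (45.7%, against 28.0%). It was the lowest of the EGCG rats for 28 of 35 genes, or 80.0%, where it was the lowest for 38.3% of all named genes.

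The share of each array's total non-normalized intensity that came from the 35 probes was read without normalization. Background was not subtracted, so that this share can also depend on the brightness of the array. The members took 0.742% of the signal in EGCG_228, 0.821% in EGCG_234 and 0.535% in EGCG_236. The water rats had 0.637%, 0.635% and 0.504%, the last in water_237, the array with the lowest mean intensity (382, against 449 to 531 in the other 5). EGCG_236 also stood between the groups over all 13514 probes, with a mean correlation of 0.979 with the other EGCG arrays and 0.979 with the water arrays. For EGCG_228 and EGCG_234 these were 0.985 and 0.984 with their own group and 0.978 and 0.972 with the water arrays.

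**Figure D2:**
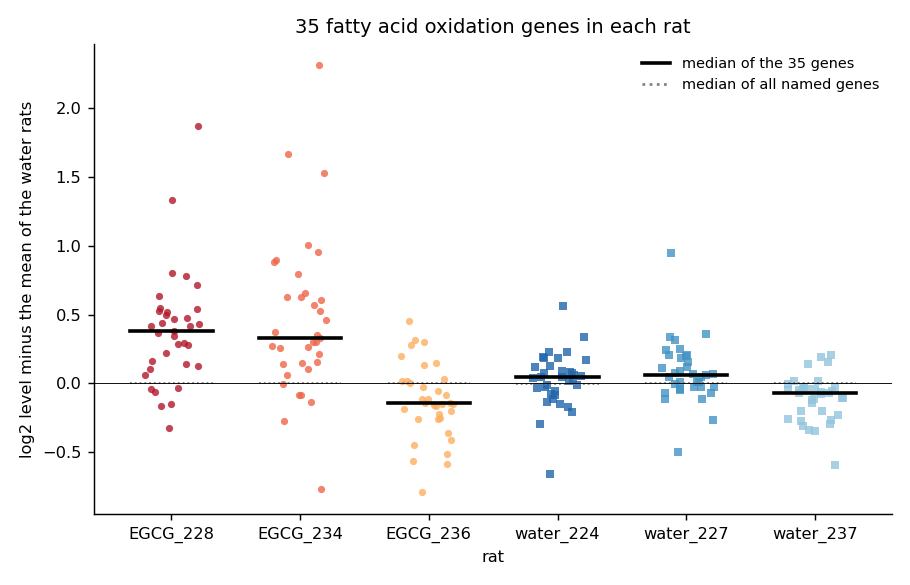
Level of each of the 35 genes in each rat (x axis) minus the mean of the 3 water rats (y axis, log2), with circles for EGCG, squares for water and a black bar for the median of the genes. The bar stands at 0.38 in EGCG_228, 0.33 in EGCG_234 and -0.14 in EGCG_236, while the dotted median of all named genes stays near 0.

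Leaving out each rat in turn showed how far the comparison rests on EGCG_236. This rat was the lowest EGCG rat for 28 of 35 members in these same values. Leaving it out therefore had to raise those differences. Without it, 4 of 35 members rose past the threshold (Cyp4a2, Cyp4a3, Acadm and Acsl1) and 0 fell, where 1.76% of all named genes passed, 0.968% higher and 0.794% lower. Without any other rat 0 members passed, where 0.0870% of all named genes did so without EGCG_228, 0.0979% without EGCG_234, 0.500% without water_224, 0.0979% without water_227 and 0.381% without water_237. The median difference of the members was 0.37 without EGCG_236, 0.12 without EGCG_228, 0.10 without EGCG_234 or water_237, 0.21 without water_224 and 0.24 without water_227. The members at an unadjusted p under 0.05 numbered 19 without EGCG_236 (18 higher and Acsl4 lower), against 15.8% of all named genes, 8.15% higher and 7.68% lower. They numbered 1 without EGCG_228 (against 9.80% of all named genes), 2 without EGCG_234 (7.98%), 5 without water_224 (9.83%), 3 without water_227 (10.1%) and 4 without water_237 (10.4%). With arrays weighted by their fit to the model there were 13 (against 15.1%), and 0 members passed the adjusted threshold (against 1.53%). With all 6 rats the groups did not overlap for 4 members that were higher with EGCG (Cpt1a, Acsl3, Acsl5 and Etfb), or 11.4% against 8.25% of all named genes, and for 1 that was lower (Acaa2), where 8.23% of all named genes were so. Without EGCG_236 the first count was 23 of 35 (65.7%, against 18.0% of all named genes), without water_224 it was 8 (against 12.8%), and it was 4 without EGCG_228, EGCG_234 or water_237 (12.6%, 11.4% and 13.7% of all named genes) and 5 without water_227 (12.7%).

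**Figure D3:**
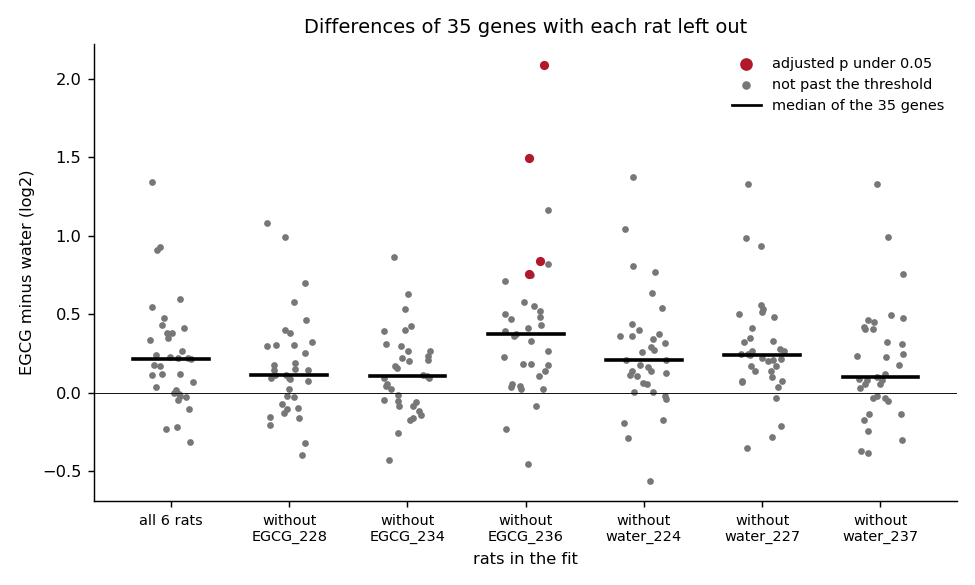
Difference (EGCG minus water, log2, y axis) of each of the 35 genes with all 6 rats and with each rat left out (x axis); red points passed an adjusted p under 0.05 and black bars mark the median. Red points appear in the fit without EGCG_236, at 2.09 (Cyp4a2), 1.496 (Cyp4a3), 0.84 (Acsl1) and 0.75 (Acadm), and in no other fit shown.

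The omega-hydroxylases of the Cyp4a family are microsomal enzymes that start the conversion of fatty acids to dicarboxylic acids, and Cyp4a2 had the widest difference of the 35 genes. Cyp4a2 (probe ILMN_1352518) stood at log2 10.07 in EGCG_228, 10.50 in EGCG_234 and 8.05 in EGCG_236, and at 8.25, 8.17 and 8.17 in water_224, water_227 and water_237. Before normalization these were intensities of 1115, 1534 and 269 with EGCG and of 394, 336 and 264 with water. EGCG_228 and EGCG_234 were far above the water rats. EGCG_236 was below the lowest of them after normalization and just above it before. The EGCG mean was 9.54 ± 1.31 and the water mean 8.20 ± 0.05 (SD, n = 3 rats each), a difference of 1.34 (2.54-fold, SE 0.48, limma adjusted p = 0.338). Without EGCG_236 the difference was 2.09 (limma adjusted p = 0.00108), and without any other rat it lay between 0.86 and 1.37.

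Cyp4a3 was likewise high in EGCG_228 and EGCG_234. Its levels were 11.59, 11.92 and 10.00 in EGCG_228, EGCG_234 and EGCG_236, and 10.05, 10.31 and 10.42 in the water rats. The groups overlapped through EGCG_236 alone, and the difference was 0.91 (1.88-fold, limma adjusted p = 0.462), or 1.496 without EGCG_236 (limma adjusted p = 0.0071). Without EGCG_234 it was 0.53 (limma adjusted p = 0.877). Since Cyp4a2 and Cyp4a3 are near-identical copies and probe sequences were not used here, a probe may read both. The counts of members hold each as a gene of its own, although they may not be independent. Cyp4a1 differed by 0.12 at its brighter probe (limma adjusted p = 0.86) and by -0.092 at its second (ILMN_1373736, adjusted p = 0.937). Cyp4a8 differed by -0.10 (limma adjusted p = 0.931), and by 0.18 without water_224. Its probe was dim, at log2 6.38 to 7.44 in the 6 rats with the filter at 6.39.

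In the carnitine shuttle, Cpt1a had the widest difference between groups. Whether genes differed from each other was not tested. Cpt1a makes acylcarnitine at the outer mitochondrial membrane and is the rate-controlling step of hepatic fatty acid oxidation. Its level was log2 10.27, 10.99 and 9.92 in EGCG_228, EGCG_234 and EGCG_236, and 9.70, 9.58 and 9.12 in water_224, water_227 and water_237. Here all 3 EGCG rats lay above all 3 water rats, EGCG_236 included. The means were 10.39 ± 0.55 and 9.46 ± 0.30 (SD, n = 3 each), a difference of 0.93 (95% confidence interval 0.35 to 1.503, 1.90-fold, limma adjusted p = 0.201). It was 1.17 without EGCG_236 (limma adjusted p = 0.0522) and 0.63 without EGCG_234, the lowest of the fits with a rat left out.

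Cpt2, which turns acylcarnitine back into acyl-CoA inside the mitochondrion, was at 11.25, 11.60 and 10.60 with EGCG and at 10.57, 10.92 and 10.67 with water, so that EGCG_236 lay within the range of the water rats (difference 0.43, limma adjusted p = 0.595). Slc25a20, the carrier that exchanges acylcarnitine for carnitine, differed by -0.028 (95% confidence interval -0.44 to 0.38), and its direction turned without EGCG_236 (0.056) or water_227 (0.14). Crat, the acetyltransferase for short chains, differed by 0.22 (adjusted p = 0.745). Its second probe lay below the filter.

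Of the acyl-CoA synthetases, 3 of 4 had higher means with EGCG and none passed. Acsl5 was at 9.99, 10.17 and 9.76 with EGCG and at 9.54, 9.57 and 9.58 with water. The groups did not overlap, and the difference was 0.41 (SE 0.16, limma adjusted p = 0.382). Acsl3, which activates fatty acids at the endoplasmic reticulum and lipid droplets, did not overlap either, at 8.39, 8.19 and 8.14 with EGCG and at 7.98, 7.60 and 8.01 with water (0.38, adjusted p = 0.417). Acsl1, the main synthetase of liver, was at 12.01 and 12.12 in EGCG_228 and EGCG_234 but at 10.98 in EGCG_236, below the 11.36, 11.24 and 11.09 of the water rats. Its difference was 0.47 (limma adjusted p = 0.611), or 0.84 without EGCG_236 (limma adjusted p = 0.0298). Without EGCG_234 it was 0.26 (limma adjusted p = 0.95). Acsl4, which prefers arachidonic acid, differed by -0.31 (adjusted p = 0.661), and by -0.087 without EGCG_234, the rat with its lowest level (8.99, against 9.60 to 9.82 in the other 5).

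**Figure D4:**
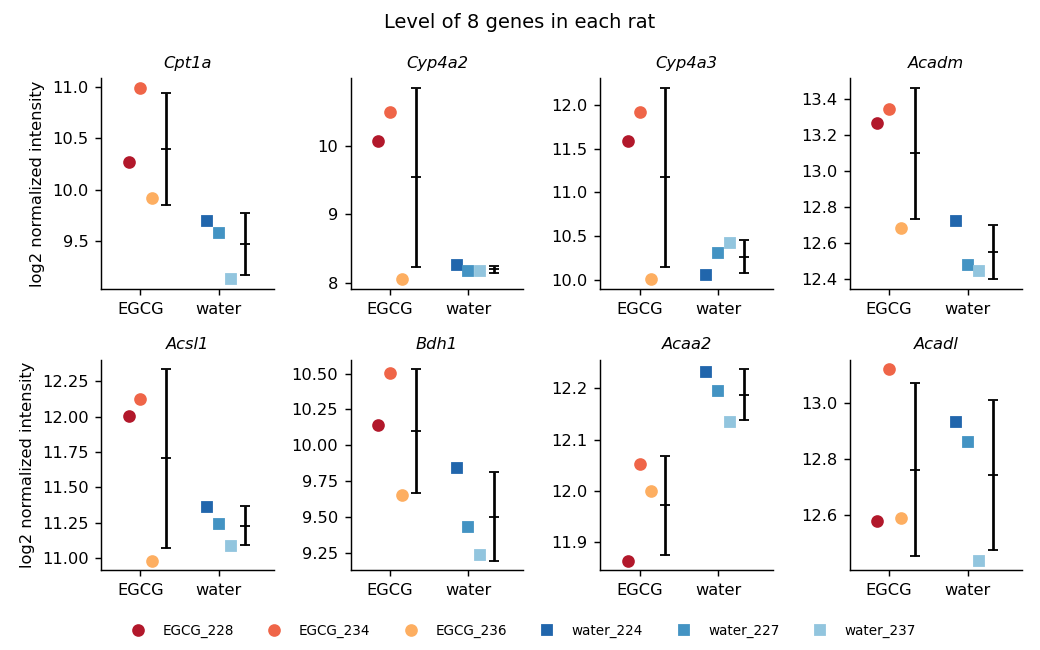
Log2 normalized intensity (y axis, a separate scale for each gene) of 8 genes in each rat by group (x axis), with 1 color per rat and bars for the mean ± SD of 3 rats. EGCG_236 lies at or near the level of the water rats for Cyp4a2, Cyp4a3, Acadm and Acsl1, above all of them for Cpt1a, and below all of them, with the other EGCG rats, for Acaa2.

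In the mitochondrial beta-oxidation spiral the differences had either direction, and none passed the threshold. Of its 9 members 7 had a difference above 0, with a median of 0.17 and a range from -0.22 to 0.55. Acadm, the medium-chain acyl-CoA dehydrogenase and a known PPARA target, was at 13.27, 13.34 and 12.68 with EGCG and at 12.72, 12.48 and 12.45 with water. EGCG_236 lay between water_224 and water_227, and the difference was 0.55 (limma adjusted p = 0.348), or 0.75 without EGCG_236 (limma adjusted p = 0.0377). Without EGCG_234 it was 0.42 (limma adjusted p = 0.773). The short-chain and very-long-chain dehydrogenases Acads and Acadvl differed by 0.27 and 0.24, and Hadh, the short-chain hydroxyacyl-CoA dehydrogenase, by 0.33 (adjusted p = 0.657, 0.774 and 0.653). Acadl, the long-chain dehydrogenase, differed by 0.020 (95% confidence interval -0.42 to 0.46), and its direction turned without EGCG_234 (-0.16) or water_237 (-0.13). Echs1, the enoyl-CoA hydratase, had equal group means at log2 11.88, and differed by -0.069 to 0.042 with a rat left out.

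Acaa2, the mitochondrial 3-ketoacyl-CoA thiolase of the last step, had a lower mean with EGCG. It was at 11.86, 12.05 and 12.00 with EGCG and at 12.23, 12.20 and 12.13 with water, and the groups did not overlap. The difference was small, -0.22 (95% confidence interval -0.54 to 0.11, limma adjusted p = 0.691). Hadha and Hadhb, the subunits of the trifunctional protein, are divergent neighbors whose RefSeq promoter windows share 200 bases. Both had their lowest level of the 6 rats in EGCG_236 (8.93 for Hadha and 10.97 for Hadhb). Hadha was highest in EGCG_234 and Hadhb in water_227, and they differed by 0.17 and -0.045 between groups. The direction turned for Hadha without EGCG_234 (-0.056), and for Hadhb without EGCG_236 (0.14) or water_227 (0.076).

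The auxiliary enzymes Eci1, Eci2 and Decr1, which let unsaturated chains enter the spiral, differed by 0.17, 0.35 and -0.0091 (adjusted p = 0.885, 0.615 and 0.997). Eci1 differed by -0.051 without EGCG_234, and Decr1 by 0.10 to 0.27 without EGCG_236, water_224 or water_227. Their median against the water mean was 0.34 in EGCG_228, 0.57 in EGCG_234 and -0.44 in EGCG_236, the widest split between EGCG rats after the Cyp4a genes. The electron transfer flavoproteins, which pass electrons from the acyl-CoA dehydrogenases to the respiratory chain, had a median of 0.30 in EGCG_236 against the water mean, of 0.30 in EGCG_228 and of 0.059 in EGCG_234. EGCG_236 was the highest EGCG rat for Etfa (11.24, against 11.06 and 10.85) and the lowest for Etfdh (10.33, against 10.69 and 10.59). Etfb was at 7.22, 6.98 and 7.22 with EGCG and at 6.91, 6.92 and 6.94 with water, without overlap (0.22, limma adjusted p = 0.566). Etfa and Etfdh, the ubiquinone oxidoreductase, differed by 0.12 and 0.22 (adjusted p = 0.884 and 0.771).

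Of the peroxisomal members, Acaa1a, the peroxisomal thiolase, was at 12.66, 13.06 and 11.75 with EGCG and at 12.03, 12.00 and 12.30 with water (0.38, limma adjusted p = 0.72). The difference was 0.75 without EGCG_236 (limma adjusted p = 0.0656) and 0.094 without EGCG_234 (limma adjusted p = 0.989). Hsd17b4, the D-bifunctional protein, differed by 0.12, Acox2, the oxidase for branched chains and bile acid side chains, by 0.069, and Pex11a, a peroxisome division protein, by -0.023 (adjusted p = 0.861, 0.96 and 0.972). The Pex11a probe was dim, at log2 6.67 to 6.92 in the 6 rats with the filter at 6.39, so that a difference could be missed. Without EGCG_228, EGCG_234 or water_237 Acox2 differed by -0.032 to -0.10, and without EGCG_236 or water_224 Pex11a differed by 0.037 and 0.0044. The acyl-CoA thioesterases Acot1 and Acot2, neighbors of similar sequence, differed by -0.23 and 0.035 (adjusted p = 0.896 and 0.968). Acot2 was also dim, at log2 6.23 to 6.85. Acot1 rested on water_227 (8.28, against 6.54 to 7.49 in the other 5) and differed by 0.24 without that rat and by 0.045 without EGCG_236, and Acot2 by -0.13 without EGCG_228. Vnn1, the pantetheinase that recycles coenzyme A precursors and a known PPARA target, differed by 0.22 (adjusted p = 0.73).

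Bdh1, the mitochondrial dehydrogenase that interconverts acetoacetate and 3-hydroxybutyrate, is the ketone body gene of the list. It was at 10.14, 10.51 and 9.65 with EGCG and at 9.84, 9.43 and 9.24 with water. EGCG_236 lay between the water rats, and the difference was 0.60 (1.51-fold, 95% confidence interval 0.085 to 1.11, limma adjusted p = 0.39), or 0.82 without EGCG_236 (limma adjusted p = 0.0877). Without EGCG_234 it was 0.39 (limma adjusted p = 0.81).

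Other genes of the same pathways were read from lists assembled by function, and 0 of their non-members passed with all 6 rats. The lists were chosen with earlier results of these data known, so their counts give no independent support. Of 10 others in the activation and carnitine list, 7 had a difference above 0 (median 0.11), of 9 in mitochondrial beta-oxidation 8 (median 0.22) and of 29 in the peroxisomal list 26 (median 0.19). In the omega-oxidation list it was 7 of 8 (median 0.39), and in the list of ketone body synthesis and use 3 of 7 (median -0.015). In the list of PPARA with its partners and targets it was 25 of 36 (median 0.10). Over all named genes the share above 0 was 51.1% and the median 0.0037. Without EGCG_234 or water_237 the peroxisomal median was 0.079 or 0.081, with 20 or 22 of 29 above 0, and without EGCG_236 it was 0.39. The PPARA list median was 0.043 without EGCG_234 and 0.17 without EGCG_236. With a rat left out the ketone body median lay between -0.13 and 0.12, and it was above 0 without EGCG_228, EGCG_236, water_224 or water_227. The activation and carnitine median lay between 0.046 (without EGCG_234) and 0.15 (without water_227).

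The non-members with the smallest unadjusted p were named from each list. Slc27a5, the bile acid and very-long-chain acyl-CoA synthetase, was at 12.06, 12.59 and 10.47 with EGCG and at 10.21, 10.37 and 10.21 with water, without overlap (1.44, limma adjusted p = 0.209). It rose past the threshold without EGCG_236 (2.06, adjusted p = 0.0021). Cd36, the fatty acid translocase, differed by -0.64 (adjusted p = 0.396; -0.37 without EGCG_234). The dehydrogenase family members Acad9 and Acad10 differed by 0.48 and 0.39, and the peroxisomal racemase Amacr and membrane protein Pxmp2 by 0.89 and 0.49, all without overlap (adjusted p = 0.233, 0.39, 0.144 and 0.25).

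Cyp4f6, an omega-hydroxylase, was at 10.57, 10.80 and 10.38 with EGCG and at 9.97, 9.65 and 9.73 with water (0.81, limma adjusted p = 0.0861). Adh4, an alcohol dehydrogenase, differed by 1.16 (adjusted p = 0.115). Without EGCG_234 Cyp4f6 and Adh4 differed by 0.70 and 0.98 (limma adjusted p = 0.356 and 0.405). Both rose past the threshold without EGCG_236 (0.91 and 1.44, adjusted p = 0.031 and 0.0285), and Adh4 also without water_224 (1.43, adjusted p = 0.0417). Cyp4f1, another omega-hydroxylase, also rose past it without EGCG_236. Of all named genes 1.76% passed without EGCG_236 and 0.500% without water_224. In the list of ketone body synthesis and use, the thiolase Acat2 differed by 0.65 (adjusted p = 0.337) and the monocarboxylate transporter gene Slc16a6 by -0.43 (adjusted p = 0.355).

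In the PPARA list the smallest unadjusted p-values were those of Tsc22d3 and Txnip. Tsc22d3, a glucocorticoid-induced leucine zipper, differed by -0.93, and Txnip, a glucose-responsive inhibitor of thioredoxin, by -0.96 (limma adjusted p = 0.0615 and 0.0752). Tsc22d3 fell past the threshold without EGCG_236 (-0.98, adjusted p = 0.0404), where Fabp1, the liver fatty acid binding protein, rose. Without water_237 the fatty acid desaturase genes Fads1 and Fads2 rose. The following were picked after their values were seen, as well-known members of the fasting response. Ppara itself differed by 0.017, Pdk4, which restrains pyruvate oxidation, by 0.056, and Angptl4, a lipase inhibitor, by -0.0050, with limma adjusted p = 0.972 for Pdk4, the lowest of the 3. The Ppara probe was dim, at log2 6.23 to 6.54 in the 6 rats with the filter at 6.39, so that a difference could be missed. Ppargc1a, of the same pick, lay below the filter. Angptl4 was at 8.12, 8.03 and 6.42 with EGCG and at 7.12, 7.90 and 7.55 with water. Plin2, a lipid droplet coat protein, was at 12.09, 12.54 and 10.62 with EGCG and at 11.11, 11.81 and 11.42 with water, so that for both genes EGCG_236 was the lowest of the 6 rats. Acat1 and Bdh2, also picked after their values were seen, differed by 0.33 and -0.30 (limma adjusted p = 0.50 and 0.59). The groups did not overlap for Acat1. The part of PPARA in these differences was not tested.

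**Figure D5:**
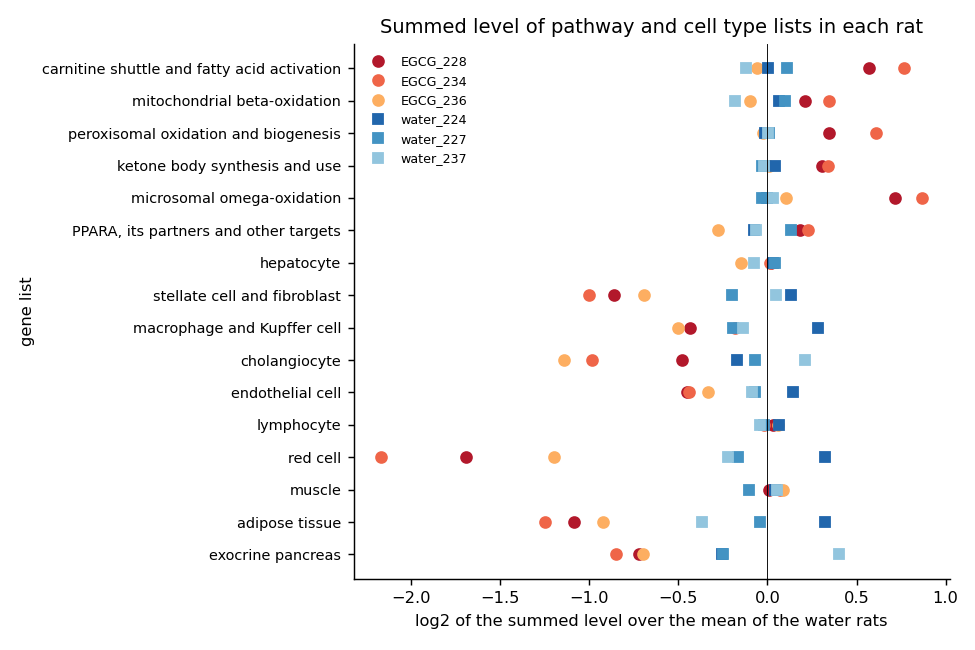
Summed normalized intensity of each gene list in each rat, as log2 over the mean of the 3 water rats (x axis), for 6 pathway lists and 10 cell type lists (y axis), with circles for EGCG and squares for water. EGCG_236 lies within or close to the water range in the oxidation lists and below it in the PPARA list, while in the stellate, cholangiocyte, endothelial, red cell, adipose and pancreas lists all 3 EGCG rats lie below every water rat.

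The summed markers of stellate cells, cholangiocytes, endothelium, red cells, adipose tissue and pancreas were lower with EGCG. The macrophage, lymphocyte and muscle sums overlapped between the groups, and the order of the EGCG rats differed between lists. The lymphocyte and muscle markers were dim, most of them near the level of the filter, so that a difference in their sums could be missed. In bulk tissue, fewer cells of a type and less RNA per cell cannot be told apart. Of 10 stellate cell and fibroblast markers, all 10 had a difference below 0 (median -0.68), where 51.1% of all named genes were above 0. At the adjusted threshold 2 of the 10 fell (Dcn and Vim, lost without EGCG_228, EGCG_234 or water_227), where 0.446% of all named genes fell. The summed intensity of the 10 was 5339 to 6611 with EGCG, with EGCG_236 highest, and 9309 to 11706 with water. Of 6 cholangiocyte markers, all 6 were below 0 (median -0.72, 0 fell), with a sum of 2734 to 4338 against 5370 to 6989. Of 6 red cell markers 3 fell, the hemoglobins, and 1 (Hba-a1) when any rat but EGCG_236 was left out; the sum was 13172 to 25794 against 50953 to 74163. In each of these lists all 3 EGCG rats were below every water rat. EGCG_236 had the highest sum of the EGCG rats for the stellate and red cell markers and the lowest for the cholangiocyte, macrophage and hepatocyte markers. The stellate markers Acta2, Lrat and Pdgfrb and the macrophage markers Cd68, Clec4f, Csf1r and Msr1 had no probe under those symbols.

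Of 14 hepatocyte markers 8 were above 0 (median 0.013, 0 passed), with a sum of 221721 (EGCG_236) to 249372 with EGCG and 233449 to 252706 with water. The liver label was met by these genes, of which Apob lay below the filter and Apoa1 had no probe. The sums of the other lists were, with EGCG and then with water, 9048 to 11305 and 11214 to 15614 for 8 macrophage markers (median -0.38), 2095 to 2272 and 2702 to 3167 for 6 endothelial markers (median -0.47), and 795 to 841 and 781 to 842 for 8 lymphocyte markers (median -0.021). In the endothelial list 1 gene fell, Vwf, a call kept only without EGCG_236. For 4 adipose markers they were 2627 to 3290 and 4853 to 7828 (median -0.89), for 4 exocrine pancreas markers 442 to 491 and 668 to 1054 (median -0.36), and for 6 muscle markers 536 to 566 and 495 to 554 (median 0.075). In the adipose list Lpl fell, a call lost without EGCG_228, EGCG_234, water_227 or water_237. The pancreas enzymes Prss1, Cela2a, Pnlip and Amy2a3 and the muscle genes Ckm, Myh4 and Myh7 lay below the filter. The part of these markers in the oxidation genes was not tested.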

How the data were processed

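Liver RNA of 6 rats was measured on Illumina bead arrays, 3 with EGCG and 3 with water, as the labels describe. The deposited table holds bead intensities on a linear scale for 22523 probes, without background subtraction or normalization as its values show (lowest intensity 53.4). A second table of intensities, normalized by the authors by a method not given in the sources used here, served as an alternative. Neither carried detection p-values, and no slide or scan date was used, so that a batch following the groups was not tested. The label numbers were taken as separate rats, and the p-values measure the spread between these 6 samples.

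The non-normalized intensities were corrected with normexp (offset 50, which compresses differences of dim probes), then quantile normalized, and log2 values were taken. Probes below the 40th percentile of the mean were left out. EGCG minus water was tested with limma 3.58.1 in R 4.3.3 (lmFit, eBayes with an intensity trend, two-sided, Benjamini-Hochberg over 13514 probes, threshold 0.05), and scripts were tested on simulated data. SE are moderated. For 3 rats against 3, the smallest two-sided p of an exact permutation test is 0.1. All members are named; of each pathway list the text names the non-members past the threshold or else the 2 with the smallest unadjusted p, and cell type lists are given as counts. The members and lists were chosen with earlier results of these data known. Alternatives covered background, normalization, filter, variance model, the authors' table, the probe rule and each rat left out. Upstream sequences are from RefSeq (GRCr8). The number of arrays limits the precision.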

Additional observations from a re-analysis of the deposited data

How the results depend on the processing

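The count of members past the threshold was 0 in 17 of the 18 alternatives and 4, all higher, without EGCG_236 (0 to 4 with a rat left out). The members' median difference stayed above 0 throughout, from 0.10 to 0.37. Of 845 values of 47 single genes under alternatives, 817 kept their direction, 28 did not and 15 passed the threshold. The 47 were the members and the non-members named for the smallest unadjusted p. All 28 values that turned were of members, as were 4 of the 15 that passed. Changing the filter, the intensity trend, the robust trend or the moderation does not alter a difference, so these alternatives could not turn one. Averaging the probes altered Cyp4a1 alone. Values that turned belonged to genes whose differences with all 6 rats ran from -0.23 (Acot1) to 0.17 (Eci1). With a rat left out, the range was -0.17 to 0.14 for Slc25a20, -0.16 to 0.11 for Acadl and -0.056 to 0.55 for Hadha. It was -0.18 to 0.14 for Hadhb, -0.069 to 0.042 for Echs1, -0.051 to 0.48 for Eci1 and -0.30 to 0.27 for Decr1. For Acox2 it was -0.10 to 0.36, for Acot1 -0.56 to 0.24 and for Acot2 -0.13 to 0.18. For Cyp4a8 it was -0.35 to 0.18 and for Pex11a -0.086 to 0.037. Otherwise Hadhb (0.013), Decr1 (0.087) and Pex11a (0.0082) turned with array weights, Decr1 (0.014) with cyclic loess and Echs1 (-0.0019) in the authors' normalized table; the cause was not tested. Of non-members, array weights also brought Slc27a5 (1.75), Cyp4f6 (0.87), Adh4 (1.32) and Tsc22d3 (-0.91) past the threshold, and a robust trend Tsc22d3 and Txnip.

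Over all named genes the count of 52 was 34 without an intensity trend, 141 with array weights, 0 without moderated variances (852 at an unadjusted p under 0.05) and 8 to 162 with a rat left out. No paired analysis was possible because the labels give each rat a number of its own. The 3 arrays of each group limit the precision.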
